A study of Mus musculus with 6 samples.

Results

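The lysosome genes described here are the protein-coding rows of the deposited expression table whose pathway annotation holds the KEGG term Lysosome. The table lists 21397 genes, of which 16428 are protein-coding, and 126 of these carry the term. Slc11a2 was left out by name, and 8 genes that also carry the term Oxidative phosphorylation, all of them subunits or accessory subunits of the proton pump of the lysosome, were left out as well. The other 117 genes are the members. The rule itself used no measured value, though it was set with earlier results of these data known.

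The lysosome is the acidic compartment in which cells degrade material taken up by endocytosis or delivered by autophagy. Its soluble hydrolases are tagged with mannose 6-phosphate in the Golgi apparatus, bound by receptors there and carried onward in coated vesicles that hold adaptor proteins and clathrin, while heavily glycosylated membrane proteins line the compartment. In the intestinal epithelium lysosomes are well known in absorptive enterocytes, which take up luminal contents. Many lysosomal genes are known targets of the transcription factors TFEB and TFE3, which bind an element built around the letters CACGTG.

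Small intestinal organoids, which are epithelial structures grown from crypts in a gel, were derived from Fpr2f/f mice, whose Fpr2 gene is flanked by recombination sites. Both groups carried this allele and no recombinase is named for them. One group received 1 μM MMK-1, a synthetic peptide that activates the receptor FPR2, for 5 days, and the control group received the vehicle, 0.1% DMSO, with 3 libraries in each group. The treatment label of this group reads 1 mM, while the protocol text and the methods give 1 μM. Each library holds pooled organoids of 3 mice, and mice aged 8 to 12 weeks were used throughout the study. Nothing in the labels says that libraries came from separate cultures, so that p-values measure the spread between these libraries, which may be technical.

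Library totals ran from 35512739 to 37537463 fragments. MMK-1 replicate 3 stood apart from the other MMK-1 libraries, with a chi-square per degree of freedom over all genes of 34.4 against replicate 1 and 29.4 against replicate 2, while the other pairs within a group gave 2.77 to 4.78. Calls that changed when it was left out are named further on. The summed FPKM of 12 enterocyte markers was 14556 to 14723 in control and 10367 to 11170 in MMK-1 libraries, that of 6 stem cell markers 56.7 to 57.5 and 324 to 337, and that of 7 Paneth cell markers 393 to 435 and 1279 to 1405. In these bulk libraries, fewer cells of a type and less RNA per cell cannot be told apart.

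Promoter sequences of RefSeq on GRCm38.p6, from 250 bases before to 50 bases after the start of each gene, were matched to 94 of the 117 members. The letters CACGTG, which read the same on both strands, were found in 22 of these 94 (23.4%), against 8.09% of 27025 genes with a promoter. Among tested genes with a promoter, 20 of 79 members (25.3%) held them, against 12.5% of 8572 genes. The longer TCACGTGA, which contains CACGTG, was found in 9 members (9.57%), against 1.13% of all genes. These 9 were all tested and made up 11.4% of the tested members, against 2.42% of tested genes. Most member promoters hold neither. The matches are shown because these letters are a sequence feature that the choice of members did not use; the shares are a description, and a match is not evidence of binding. Each sequence is written on the strand of its gene, with TCACGTGA in capitals and up to 11 bases on either side. The 4 members in the first lines rose with MMK-1, the next 2 fell and the last 3 did not pass the threshold.
Cd164, chr10:41519401-41519430, + strand: cgccgggctgcTCACGTGAccggcgcgcgc
Cln3, chr7:126583340-126583369, - strand: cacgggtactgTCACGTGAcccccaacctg
Gla, chrX:134601215-134601244, - strand: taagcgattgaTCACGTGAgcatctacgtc
Sumf1, chr6:108185577-108185606, - strand: agcaccacaggTCACGTGAtctccatgggt
Ctsa, chr2:164833749-164833778, + strand: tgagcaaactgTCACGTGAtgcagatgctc
Gnptg, chr17:25240120-25240149, - strand: ccggctgtcacTCACGTGAccgtgagaccc
Ctsd, chr7:142387908-142387937, - strand: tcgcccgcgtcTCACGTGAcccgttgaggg
Igf2r, chr17:12769737-12769766, - strand: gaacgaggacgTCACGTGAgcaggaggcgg
Mcoln1, chr8:3500462-3500491, + strand: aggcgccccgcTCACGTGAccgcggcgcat
In Cln3, Ctsa, Ctsd and Mcoln1 the capitals lie inside an exon of a transcript that GENCODE vM21 annotates from a start further upstream, in Cd164 they span the start of the first annotated exon, and in Gla, Sumf1, Gnptg and Igf2r they lie outside the annotated exons of the gene. CACGTG was present in 7 of 22 members that rose, 4 of 32 that fell and 9 of 25 that did not pass the threshold, counted over tested members with a promoter.

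MMK-1 treatment did not move the lysosome genes in a single direction: some hydrolases and sorting proteins rose while others of the same role fell. Of the 117 members, 98 had a mean of at least 1 FPKM (fragments per unit of gene length and of library size) and were tested with limma on log2(FPKM + 1), with p-values adjusted over all 10551 tested genes. At an adjusted p of at most 0.05, 29 members (29.6%) were higher with MMK-1, where 48.5% of all tested genes were. A total of 39 members (39.8%) were lower, against 24.7% of all tested genes, and 30 did not pass. The same shares, 48.5% and 24.7%, are the comparison for the counts by role, substrate and complex further on. The median log2 fold change was -0.059 over the members and 0.13 over all tested genes. Dividing each library by its upper quartile brought the median of all genes to 0.037 and gave 22 members higher and 51 lower, where 38.9% and 33.1% of all tested genes were. A median-ratio scaling brought that median to 0.0061 and gave 20 members higher and 54 lower, where 35.9% and 36.3% of all tested genes were. The 39 members that were lower passed under both scalings. Of the 29 that were higher, Ap1g1, Ctsb, Dmxl1, Dnase2a, Fuca1, Laptm4a and Sumf1 passed under neither, and Ap1s3 and Asah1 passed with the first only.

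Most of the changes were small. Of the members that rose, 21 of 29 did so by less than 0.5 on the log2 scale, and 28 of the 39 that fell changed by less than 0.5. At the study's threshold of a fold change of at least 2 with p of at most 0.05, Gga2, Ctsl and Gm2a were upregulated (3.06% of the tested members, against 3.39% of all tested genes) and Acp5 and Ctso were downregulated (2.04% against 3.65%). With the fold change set to 1.5, 7 members were upregulated and 9 downregulated, where 14.2% and 8.1% of all tested genes were. The 3 values of each group lay fully apart from those of the other in 76 of 98 members (77.6%, against 76.8% of all tested genes), which includes all 68 that passed the adjusted threshold. For a single gene, the exact two-sided permutation test of 3 libraries against 3 cannot go below p = 0.1, the value reached by each of these 5 genes.

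**Figure D1:**
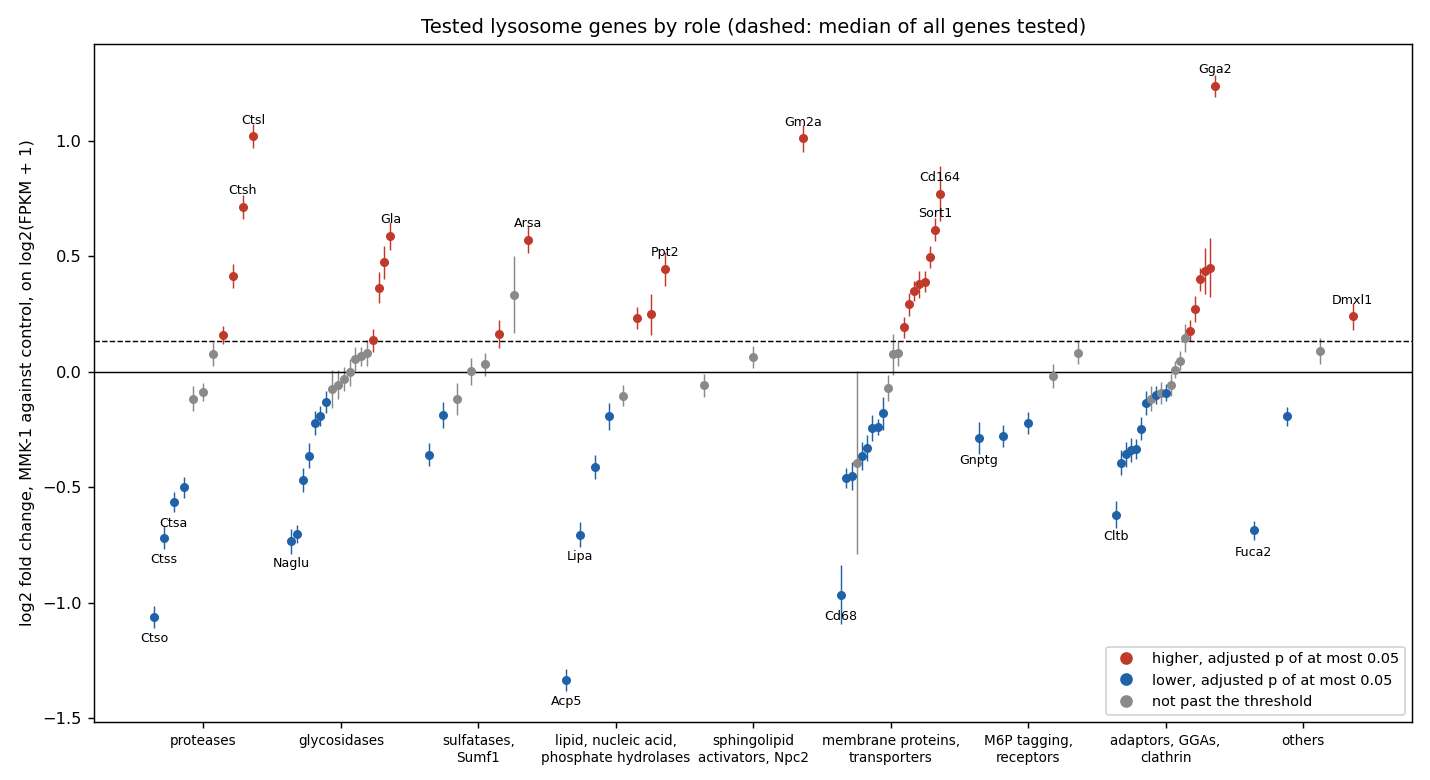
The log2 fold change (MMK-1 against control, on log2(FPKM + 1)) of the 98 tested lysosome genes, ordered within 9 role groups. Points are limma estimates, bars their standard errors, the solid line is 0 and the dashed line the median of all tested genes, 0.13. Red points (29) were higher and blue points (39) lower past the adjusted threshold of 0.05, and 7 of the 9 role groups hold both colours.

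Among the proteases, most of them cathepsins that cleave proteins inside the lysosome, 4 of 11 tested members rose and 4 fell. Ctsl, which encodes the cysteine protease cathepsin L (NCBI gene 13039, chr13:64359337-64370890, - strand, GRCm38), measured 6.33, 6.80 and 6.84 FPKM in the control libraries and 13.9, 14.4 and 15.2 FPKM in the MMK-1 libraries. Every MMK-1 library was above every control library. The ratio of the means was 2.18 and the log2 fold change 1.02 ± 0.052 (SE, n = 3 per group, limma adjusted p = 4.37e-07). Without MMK-1 replicate 3 the log2 fold change was 0.99, just under the threshold of a fold change of 2.

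Ctso, which encodes cathepsin O, another cysteine protease (NCBI gene 229445, chr3:81932601-81956725, + strand), gave 6.38, 6.54 and 6.66 FPKM in control and 2.69, 2.54 and 2.59 FPKM in MMK-1 libraries. The groups were well separated, with a spread in each group far below the gap between them. The control mean was 2.50 times the MMK-1 mean, and the log2 fold change was -1.06 ± 0.048 (adjusted p = 2.26e-07, limma).

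Ctsh, an aminopeptidase, rose by 0.71 on the log2 scale (adjusted p = 3.24e-06), Ctsc, which activates granule serine proteases, by 0.41 (adjusted p = 0.000129), and the abundant Ctsb by 0.16 (adjusted p = 0.00615). Ctsb did not pass the threshold under either upper-quartile scaling (0.05, adjusted p = 0.242) or median-ratio scaling. Ctss, an endosomal cysteine protease best known from antigen-presenting cells, fell by 0.72 (adjusted p = 2.55e-06). Ctsa, the protective protein that stabilises neuraminidase and beta-galactosidase, fell by 0.56 (adjusted p = 4.02e-06) and Ctsz, a carboxypeptidase, by 0.50 (adjusted p = 1.28e-05).

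Ctsd, the main aspartic protease of the lysosome, read 189, 190 and 191 FPKM in control and 174, 175 and 187 FPKM in MMK-1 libraries. Its groups did not overlap, but the difference did not pass the threshold (log2 fold change -0.087 ± 0.040, adjusted p = 0.0771). It passed as lower without MMK-1 replicate 3 (-0.12, adjusted p = 0.00166) and under upper-quartile scaling (-0.20, adjusted p = 0.0010). Lgmn did not pass with all libraries (-0.12, adjusted p = 0.0821), and was lower without MMK-1 replicate 3 (-0.15, adjusted p = 0.0269) and under upper-quartile scaling (-0.22, adjusted p = 0.00477). Tpp1 passed in none of these fits.

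The make-up of the protease transcripts shifted between members of similar level. The summed FPKM of the protease group was 778 ± 5.17 (SD, n = 3) in control and 703 ± 24.0 in MMK-1 libraries. Ctsz held 27.1% ± 0.301 of that sum in control and 21.2% ± 0.321 in MMK-1 libraries, while Ctsb held 20.3% ± 0.158 and 25.1% ± 0.168. The most abundant protease was therefore Ctsz in each control library and a near tie of Ctsd (25.4% ± 0.129) and Ctsb in the MMK-1 libraries. The ratio of Ctsl to Ctss went from 0.450 ± 0.0140 to 1.69 ± 0.156, so that the order of these cysteine proteases changed.

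**Figure D2:**
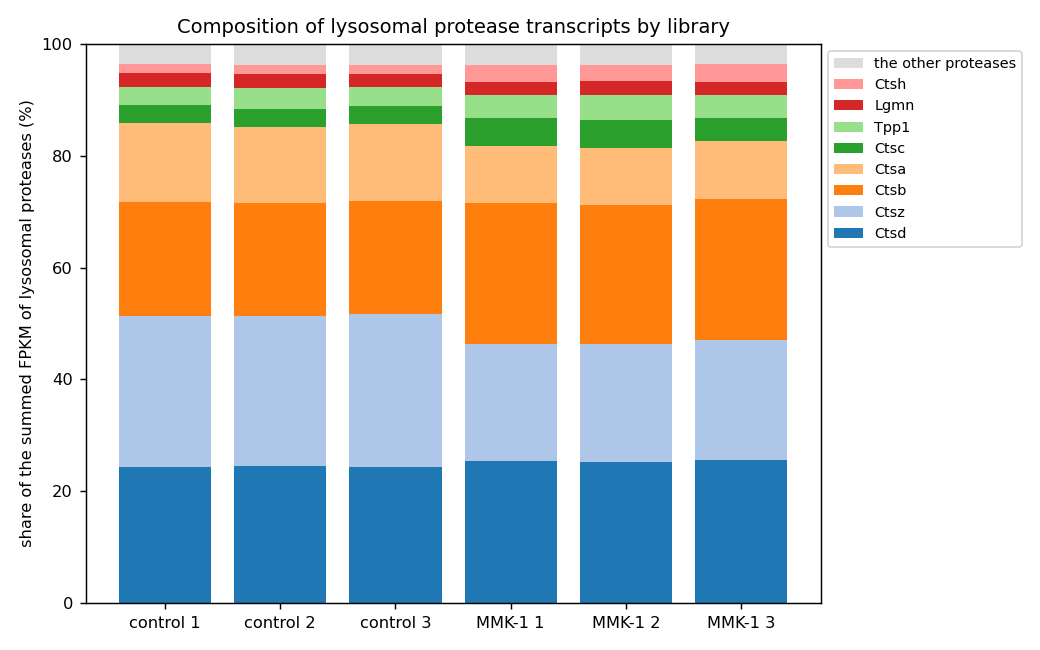
The share (%) of each protease in the summed FPKM of the lysosomal proteases, for the 3 control and 3 MMK-1 libraries. The segment of Ctsz narrowed from 26.9 to 27.4% in the control libraries to 21.0 to 21.5% in the MMK-1 libraries, and that of Ctsb widened from 20.2 to 20.5% to 24.9 to 25.2%.

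Glycosidases remove sugars from glycoproteins, glycolipids and glycosaminoglycans, and 4 of 18 tested genes of the list rose while 7 fell. With Fuca2 and Hyal2, sugar hydrolases that the list leaves out and that are described with the genes outside the role lists, 4 of 20 rose and 9 fell. Naglu, which acts on heparan sulfate, measured 8.57, 8.67 and 9.46 FPKM in control and 4.71, 5.15 and 4.97 FPKM in MMK-1 libraries. No MMK-1 library came near the control range. The mean fell by 44.4% (log2 fold change -0.73 ± 0.055, adjusted p = 4.48e-06). Hexa, a subunit of beta-hexosaminidase, fell by 0.36 (adjusted p = 0.000324). Manba, a mannosidase, fell by 0.47 (adjusted p = 4.52e-05).

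Gla, alpha-galactosidase A, the enzyme that removes the terminal sugar of globotriaosylceramide, gave 4.52, 4.64 and 4.50 FPKM in control libraries. Its MMK-1 libraries gave 7.54, 6.69 and 7.86 FPKM, all above the control range. The ratio of the means was 1.62 (log2 fold change 0.59 ± 0.061, adjusted p = 3.20e-05). Hyal1, a hyaluronidase, rose by 0.47 (adjusted p = 0.000307). It reached the filter only through the MMK-1 libraries (1.16 to 1.45 FPKM, against 0.619 to 0.713 FPKM in control), so its call partly follows from the filter. Gusb, beta-glucuronidase, rose by 0.36 (adjusted p = 0.00110).

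Fuca1, the fucosidase of the lysosome and the most abundant glycosidase here, measured 93.8, 96.6 and 98.4 FPKM in control and 103, 102 and 114 FPKM in MMK-1 libraries. The groups did not overlap, and the rise was small (0.14 ± 0.050, adjusted p = 0.0372). The log2 fold change was 0.024 (adjusted p = 0.660) with upper-quartile scaling and turned to -0.011 with median-ratio scaling, while the call held with values rescaled to the same sum in every library, as TPM (0.16, adjusted p = 0.0146). It was lost without any of the control libraries (adjusted p = 0.119, 0.0908 and 0.0612 without replicates 1, 2 and 3) and without the filter (adjusted p = 0.0742), and the log2 fold change was 0.085 without MMK-1 replicate 3 (adjusted p = 0.0272). Glb1, Gaa, Galc, Neu1, Idua and Aga did not pass the threshold, with log2 fold changes from -0.077 to 0.079.

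By substrate, members with the KEGG term Glycosaminoglycan degradation rose in 2 and fell in 6 of 14 tested genes, and their summed FPKM was 337 ± 4.96 in control and 272 ± 9.72 in MMK-1 libraries. Members with the term Other glycan degradation rose in 1 and fell in 5 of 10. For Sphingolipid metabolism, 4 of 12 rose and 3 fell. The median log2 fold changes were -0.098, -0.12 and 0.064 in that order, beside 0.13 over all tested genes.

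Sulfatases remove sulfate groups from glycosaminoglycans and sulfolipids, and Sumf1 activates them. Here 2 of 8 tested genes rose and 2 fell. Arsa, which acts on sulfatide, gave 6.97, 6.25 and 6.43 FPKM in control and 9.74, 10.03 and 10.9 FPKM in MMK-1 libraries, a log2 fold change of 0.57 ± 0.058 (adjusted p = 2.92e-05). All MMK-1 libraries lay above the control libraries. Arsg fell by 0.19 (adjusted p = 0.0155). Ids, iduronate sulfatase, did not pass (0.33, adjusted p = 0.101), but passed without MMK-1 replicate 3 (0.56, adjusted p = 7.71e-05).

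The 8 tested hydrolases of lipids, nucleic acids and phosphate esters included the largest fall among the members on the log2(FPKM + 1) scale, while Cd68 fell more by the ratio of the means. Acp5, tartrate-resistant acid phosphatase (NCBI gene 11433, chr9:22126727-22135711, - strand), measured 38.4, 40.1 and 41.4 FPKM in control and 15.5, 14.6 and 15.6 FPKM in MMK-1 libraries. The ranges were far apart in relation to the spread of either group. The mean fell by 61.9%, and the log2 fold change was -1.33 ± 0.047 (adjusted p = 6.22e-08). Lipa, the acid lipase that frees cholesterol from its esters, fell by 0.71 (adjusted p = 5.81e-06) and Acp2, another acid phosphatase, by 0.41 (adjusted p = 0.000121). Smpd1, acid sphingomyelinase, fell by 0.19 (adjusted p = 0.0132).

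Ppt2, a thioesterase, moved the other way, from 11.01, 11.3 and 11.2 FPKM in control to 14.7, 14.3 and 17.8 FPKM in MMK-1 libraries. Its MMK-1 libraries were all higher, and replicate 3 was the highest of them (log2 fold change 0.44 ± 0.074, adjusted p = 0.000622). Asah1, acid ceramidase, rose by 0.23 (adjusted p = 0.00176) and Dnase2a, the acid nuclease, by 0.25 (adjusted p = 0.0306). Dnase2a did not pass without MMK-1 replicate 3 (0.19, adjusted p = 0.0816). The summed FPKM of this group was 128 ± 1.77 in control and 99.97 ± 2.84 in MMK-1 libraries.

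Sphingolipid activators are small proteins that present lipids to the hydrolases. Gm2a, the activator that lifts GM2 ganglioside towards beta-hexosaminidase A (NCBI gene 14667, chr11:55098115-55113029, + strand), was low in control at 1.10, 1.10 and 1.16 FPKM and measured 3.38, 3.03 and 3.40 FPKM with MMK-1. The ratio of the means was 2.92, while the log2 fold change, reduced by the pseudocount of 1, was 1.01 ± 0.059 (adjusted p = 1.03e-06). Without MMK-1 replicate 3 it was 0.99. Gm2a rose as Hexa fell, so that the ratio of Gm2a to Hexa went from 0.0135 ± 0.000463 to 0.0509 ± 0.00274.

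Psap, the precursor of the saposins and the most abundant gene of this group, read 137, 137 and 137 FPKM in control and 139, 138 and 152 FPKM in MMK-1 libraries. The MMK-1 values lay above the control values, with replicate 3 apart, and the difference did not pass the threshold (0.063 ± 0.046, adjusted p = 0.246). It changed sign with the scaling, to -0.049 with upper-quartile and -0.084 with median-ratio scaling. Npc2, which carries cholesterol, gave a log2 fold change of -0.059 (adjusted p = 0.300). It was lower without MMK-1 replicate 3 (-0.099, adjusted p = 0.0301) and under upper-quartile scaling (-0.17, adjusted p = 0.00833).

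Of the membrane proteins and transporters, 8 of 20 tested members rose and 8 fell. Lamp1, a glycoprotein of the lysosomal membrane and the most abundant member of all, measured 374, 380 and 387 FPKM in control and 316, 324 and 325 FPKM in MMK-1 libraries. The groups did not overlap, and the mean fell by 15.3% (log2 fold change -0.24 ± 0.036, adjusted p = 0.000314). Lamp2 gave 33.6 to 36.6 FPKM in control, 39.99 and 40.5 FPKM in MMK-1 replicates 1 and 2 and 31.6 FPKM in replicate 3. It did not pass with all libraries (0.076, adjusted p = 0.458) and was higher without replicate 3 (0.19, adjusted p = 0.0025).

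Cd164, a sialomucin of endosomes and lysosomes, gave 105, 104 and 108 FPKM in control and 205, 200 and 144 FPKM in MMK-1 libraries. The MMK-1 libraries were higher throughout, but replicate 3 was 0.711 times the mean of the others. The log2 fold change was 0.77 ± 0.12 (adjusted p = 0.000348), and 0.93 (adjusted p = 4.74e-08) without replicate 3. Sort1, the sorting receptor sortilin, rose by 0.61 (adjusted p = 6.14e-06) and Cln3, a membrane protein mutated in Batten disease, by 0.50 (adjusted p = 2.05e-05).

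The sialic acid exporter Slc17a5, the cholesterol transporter Npc1, the membrane protein Scarb2, the tetraspanin Cd63 and Laptm4a also rose, by 0.19 to 0.39. Cd68, a glycoprotein known as a macrophage marker, was low, at 2.78, 3.14 and 3.58 FPKM in control and 0.926, 0.915 and 1.62 FPKM in MMK-1 libraries. The ranges did not overlap, and replicate 3 was the highest of the MMK-1 libraries. The control mean was 2.75 times the MMK-1 mean, and the log2 fold change was -0.96 ± 0.13 (adjusted p = 0.000146). Of 12 markers of macrophages and other leukocytes, 5 were under 0.1 FPKM in all libraries, among them Ptprc and Adgre1. Itgam, the marker of that list that reached the filter, fell from 2.29 to 2.42 FPKM in control to 0.844 to 1.09 FPKM in MMK-1 libraries (-0.79, adjusted p = 9.22e-06), and passed the filter only through the control libraries, while Cd14 gave 0.529 to 0.870 FPKM and 1.14 to 1.37 FPKM. The part of such cells in the fall of Cd68 was not tested. The summed FPKM of the 12 markers was 3.96 to 4.52 in control and 2.87 to 3.80 in MMK-1 libraries. Litaf, Mfsd8, Abcb9, the cystine exporter Ctns and Abca2 fell, by 0.18 to 0.46.

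Mannose 6-phosphate tagging and the receptors for the tag held no gene that rose and 3 of 5 tested genes that fell. Shares over all tested genes were 48.5% and 24.7%. Gnptg, a subunit of the phosphotransferase that starts the tag, gave 7.25, 7.79 and 6.59 FPKM in control and 5.56, 5.40 and 6.21 FPKM in MMK-1 libraries. The groups were separate but close (log2 fold change -0.29 ± 0.070, adjusted p = 0.00497). Gnptab, which encodes the catalytic part of the same enzyme, fell by 0.28 (adjusted p = 0.000741). M6pr, the cation-dependent receptor, gave 93.1, 97.5 and 92.7 FPKM in control and 77.7, 79.5 and 85.4 FPKM in MMK-1 libraries. All its MMK-1 values lay under the control values (-0.22 ± 0.047, adjusted p = 0.00246). Igf2r, the other receptor, gave 0.083 (adjusted p = 0.167) and Nagpa, the enzyme that uncovers the tag, -0.019 (adjusted p = 0.753).

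The sorting machinery held the largest rise among the members on the log2(FPKM + 1) scale, while Gm2a rose more by the ratio of the means. Gga2, a Golgi adaptor that binds the tails of mannose 6-phosphate receptors (NCBI gene 74105, chr7:121986722-122021222, - strand), measured 7.27, 7.09 and 7.13 FPKM in control and 18.1, 17.4 and 19.2 FPKM in MMK-1 libraries. The control libraries were nearly equal and each MMK-1 library was far above them. The ratio of the means was 2.55 and the log2 fold change 1.24 ± 0.048 (adjusted p = 1.03e-07). It was 1.20 without MMK-1 replicate 3 and 1.10 under median-ratio scaling. Gga3 rose by 0.40 (adjusted p = 0.000124) and Gga1 did not pass (-0.092, adjusted p = 0.100). Gga1 was lower without MMK-1 replicate 3 (-0.12, adjusted p = 0.0252) and under upper-quartile scaling (-0.20, adjusted p = 0.0026). The ratio of Gga2 to Gga1 went from 0.286 ± 0.0110 to 0.779 ± 0.0137.

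The adaptor complexes AP-1, AP-3 and AP-4, which select cargo for vesicles between Golgi, endosomes and lysosomes, did not move as units. In AP-1, 2 of 7 tested genes rose and 3 fell, in AP-3 1 of 5 rose and 3 fell, and in AP-4 1 of 3 rose and 1 fell. The small subunits Ap3s1 (0.44, adjusted p = 0.00372) and Ap1s3 (0.45, adjusted p = 0.0111) rose, but in MMK-1 replicate 3 they reached 0.759 and 0.668 times the mean of the other MMK-1 libraries. Ap4b1, Ap3d1, Ap1m1 and Ap3s2 fell by 0.33 to 0.39. The summed FPKM of AP-4 was 21.7 ± 0.727 in control and 21.7 ± 0.948 in MMK-1 libraries.

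Cltb, a clathrin light chain, fell from 52.8, 56.1 and 54.7 FPKM in control to 33.4, 33.9 and 38.3 FPKM in MMK-1 libraries. The groups did not overlap (log2 fold change -0.62 ± 0.057, adjusted p = 1.62e-05). Clta, the other light chain, gave 121, 123 and 121 FPKM in control and 113, 113 and 117 FPKM in MMK-1 libraries. This small difference (-0.092 ± 0.037, adjusted p = 0.0494) was at the threshold and was lost when any library other than MMK-1 replicate 3 was left out. The heavy chain Cltc gave 0.0085 (adjusted p = 0.838).

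The other 4 tested members were in none of the role lists. Fuca2, a fucosidase that is largely secreted, read 33.7, 34.2 and 33.9 FPKM in control and 20.3, 20.3 and 21.4 FPKM in MMK-1 libraries. Libraries of a group were almost equal, and the mean fell by 39.0% (-0.69 ± 0.040, adjusted p = 1.06e-06). Dmxl1, which regulates the assembly of the proton pump, gave 3.63, 3.98 and 3.89 FPKM in control and 5.01, 4.69 and 4.42 FPKM in MMK-1 libraries, a rise without overlap (0.24 ± 0.058, adjusted p = 0.00513). It did not pass under upper-quartile scaling (0.15, adjusted p = 0.0509). Hyal2 fell by 0.19 (adjusted p = 0.00255) and Wdr7 did not pass.

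**Figure D3:**
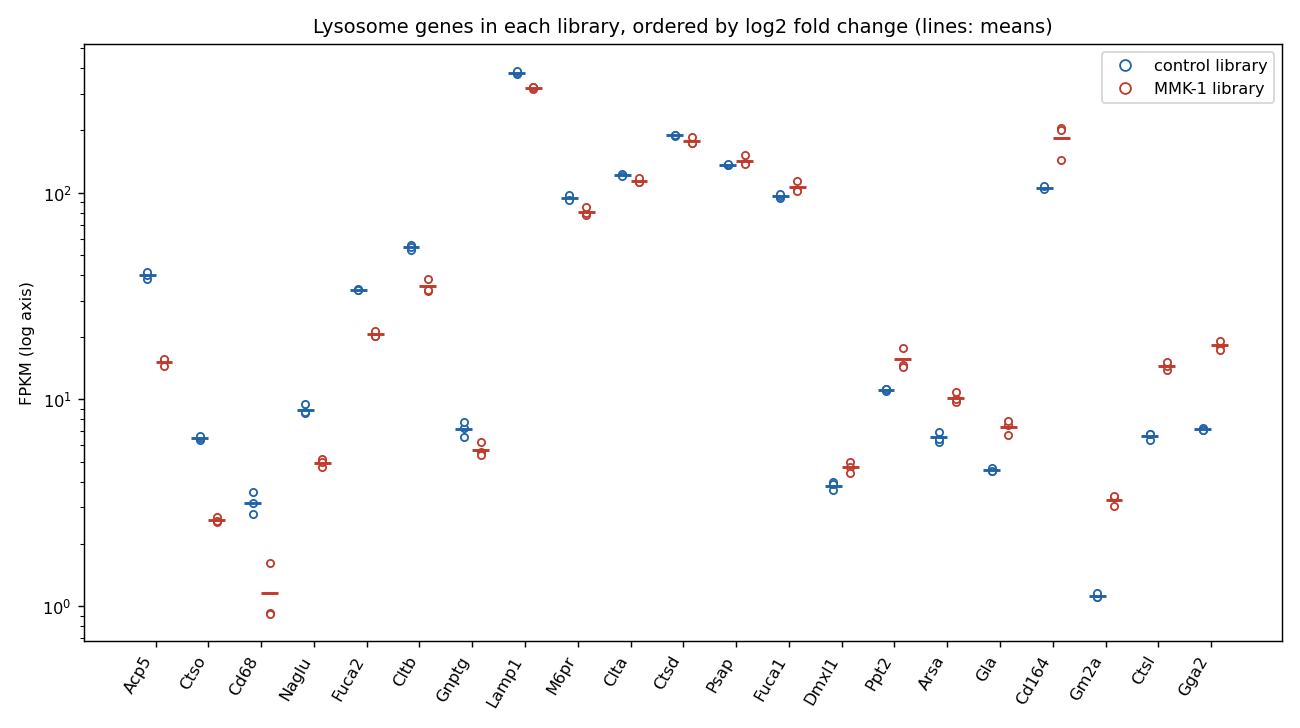
FPKM (log axis) of 21 singly named lysosome genes in each of the 3 control (blue) and 3 MMK-1 (red) libraries, ordered from the largest fall to the largest rise, with lines at the group means. Levels run from about 1 FPKM (Cd68 and Gm2a) to 380 FPKM (Lamp1 in control), and the MMK-1 points of Cd164 and Cd68 are the most spread.

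The 19 members under the filter were Ap1s2, Ap3b2, Ap3m2, Ap4s1, Pla2g15, Entpd4, Lamp3, Laptm5, Slc11a1, Dmxl2, Hyal3, Hyal6, Ncoa7, Ctse, Ctsf, Ctsg, Ctsk, Napsa and Psapl1. Hyal6 was listed at 0 in all libraries, and 9 members had a mean under 0.1 FPKM, among them the leukocyte-associated Slc11a1 and Ctsg. Without the filter, 116 members could be fitted, with 27 higher and 41 lower, against 28.1% and 15.2% of all genes fitted. In that fit Ncoa7 fell from 1.19 to 1.21 FPKM in control to 0.396 to 0.513 FPKM in MMK-1 libraries (adjusted p = 0.000200), and Ap1s2, a small subunit of AP-1, rose from 0.0915 to 0.138 FPKM to 0.466 to 1.05 FPKM (adjusted p = 0.00665). Entpd4b varied from 0.608 to 3.24 FPKM within the control group alone, and how the counting divided reads between it and its paralog Entpd4 was not tested, so both are uncertain.

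MMK-1 replicate 3 was the highest of the MMK-1 libraries in 67 of 98 tested members and fell under 0.8 times the mean of the others in 6, namely Entpd4b, Ids, Ap1s3, Cd164, Ap3s1 and Lamp2. Leaving it out gave 31 members higher and 47 lower, where 49.2% and 27.9% of all tested genes were, including 28 of the 29 and all 39 called with it. Ap4e1, Lamp2 and Ids then passed as higher, Ap1s1, Ap3b1, Gga1, Ppt1, Mcoln1, Lgmn, Ctsd and Npc2 passed as lower, and Dnase2a no longer passed. Only Gga2 was then upregulated at a fold change of at least 2.

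**Figure D4:**
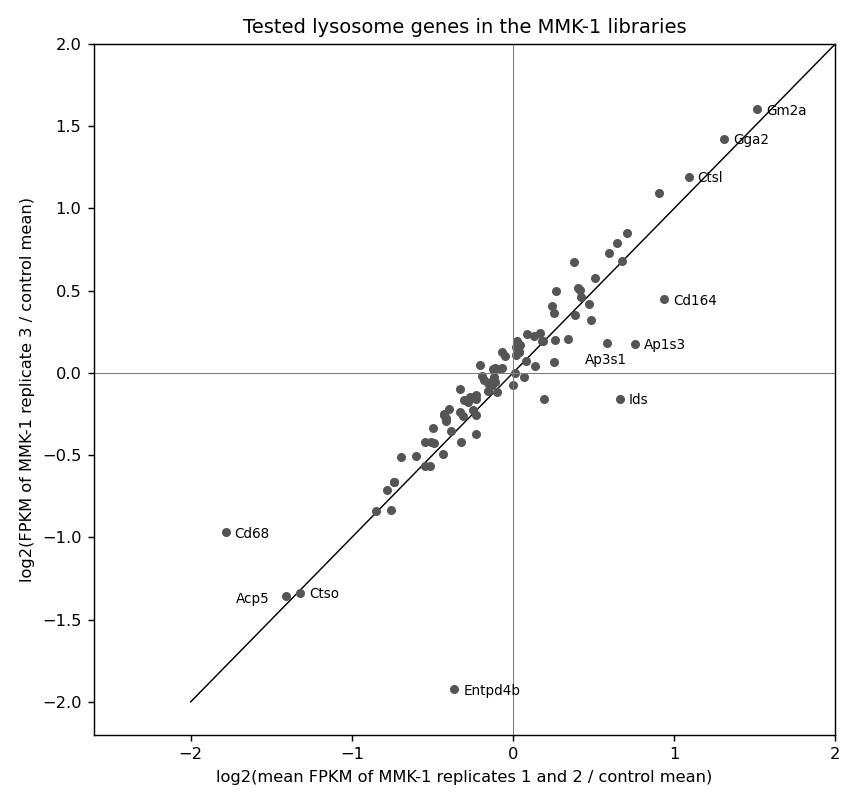
Each point is a tested lysosome gene, with the log2 ratio of the mean FPKM of MMK-1 replicates 1 and 2 to the control mean on the x axis and that of MMK-1 replicate 3 to the control mean on the y axis. The line marks equal ratios. Most genes lie near it, while Entpd4b, Ids, Ap1s3, Ap3s1 and Cd164 lie below it and Cd68 above it.

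Related genes outside the members were counted from lists drawn up by function. For comparison with these counts, 48.5% of all tested genes were higher and 24.7% lower. Of 19 tested subunits and accessory subunits of the proton pump (V-ATPase), which acidifies the lysosome and includes the 8 genes left out above, 6 rose and 8 fell. Tcirg1 rose by 0.73 (adjusted p = 7.18e-06), and Atp6v0e2 fell by 1.02 (adjusted p = 6.58e-06), though it reached the filter only through the control libraries (2.14 to 2.38 FPKM, against 0.440 to 0.713 FPKM with MMK-1). Of 14 tested genes around TFEB and TFE3, 4 rose and 3 fell. Tfeb itself measured 2.45, 2.63 and 2.30 FPKM in control and 2.51, 2.62 and 2.52 FPKM in MMK-1 libraries, and the groups overlapped (0.037 ± 0.057, adjusted p = 0.576). Tfe3 rose by 0.22 (adjusted p = 0.0113) in the fit without rescaling, the only fit given for these related genes.

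Of 30 tested genes of the autophagy machinery, which delivers cytoplasm to lysosomes, 10 rose and 13 fell. The shares over all tested genes were 48.5% and 24.7%. Map1lc3a, which coats autophagosome membranes, rose by 0.85 (adjusted p = 3.96e-06), while Sqstm1, a cargo receptor, fell by 0.49 (adjusted p = 1.84e-05) and Atg7, an enzyme of autophagosome formation, by 0.52 (adjusted p = 2.48e-05). In a further list of 33 tested genes, most of them known in lysosomes, 8 rose and 15 fell. This list also holds the member Fuca2, and Pla2g6 and another enzyme known mainly outside lysosomes, and without these 7 of 30 rose and 13 fell. The amino acid exporter Slc36a1 fell from 23.1 to 24.4 FPKM in control to 5.26 to 5.47 FPKM in MMK-1 libraries (-1.95 ± 0.043, adjusted p = 5.09e-09). The medians of these lists were -0.12, 0.036, -0.10 and -0.088, in the order given, each below the median of all tested genes.

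Markers of enterocytes fell in 10 and rose in 1 of 12 genes in the same libraries, where 24.7% and 48.5% of all tested genes did. All 6 stem cell and all 7 Paneth cell markers rose. Enteroendocrine markers rose in 4 of 6 genes and goblet cell markers rose in 4 and fell in 2 of 6. The part of these shifts in the changes of lysosome genes was not tested.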

How the data were processed

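RNA-seq of 6 libraries, 3 per group, was analysed. The authors deposited FPKM values per gene, from paired reads of 150 bp per the study's methods; the submitters' processing notes list HISAT2, HTSeq, R 3.2.0, DESeq2 and mm10, with no role given. FPKM values were whole numbers of fragments times a factor per library for 100.0% of 21397 genes (tolerance 0.03), which gave fragments, up to a factor shared by the libraries of a gene, and library totals; intervals of such counts would cover counting error only.

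The 10551 genes that averaged at least 1 FPKM were tested with limma 3.58.1 (trend) in R 4.3.3 on log2(FPKM + 1), with Benjamini-Hochberg adjustment over all of them. Fold changes on this scale understate those of low genes. The fit and the recovery were tested on simulated data. The members, the lists of roles, related genes and markers, and the tests were chosen with earlier results of these data known. Singly named members were those past a fold change of 2 with p of at most 0.05 and, in each role list, the largest rise and fall past the adjusted threshold without overlap and the highest mean. Other members are given by log2 fold change, and some members are not reported here. Gene coordinates were taken from GENCODE vM21 (GRCm38), which may not match the authors' annotation. Python 3.11.15 with pandas 2.3.3 and matplotlib 3.10.9 was used. Alternatives covered scaling, pseudocount, filter, unit, a replicate block, thresholds, the set of members and leaving out each library.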

Additional observations from a re-analysis of the deposited data

How the results depend on the processing

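The number of lysosome genes upregulated past a 2-fold change was 3, and became 1 under upper-quartile scaling, 1 under median-ratio scaling (chosen after seeing the data), 1 without MMK-1 replicate 3 and 7 with the threshold set to 1.5-fold, where 9 were downregulated in place of 2. The median log2 fold change of the members, -0.059, became -0.16, -0.19 and -0.099 under the first 3 of these. Leaving out each library in turn gave 27 to 31 members higher, 33 to 47 lower (47 without MMK-1 replicate 3), 1 to 3 upregulated and 2 to 3 downregulated past a 2-fold change, and medians from -0.099 to -0.032. With the replicate block, 28 were higher and 37 lower (47.6% and 24.1% of all tested genes). Of these, 28 and 36 had been called without it. Ap3m1, Clta (adjusted p = 0.0858), Abca2 and Sumf1 were lost with the block. Deviations of same-numbered libraries from their group means correlated at r over genes of 0.025, -0.040 and 0.028. Such deviations also hold counting error and the shift of MMK-1 replicate 3, so these values cannot show whether the numbers pair libraries. Fuca1 turned to -0.011 (adjusted p = 0.824) under median-ratio scaling. Psap, not past the threshold, turned to -0.049 under upper-quartile and -0.084 under median-ratio scaling. The cause of these changes was not tested. With a pseudocount of 0.1, Gm2a rose by 1.46 and Gga2 by 1.34 on the log2 scale, and Cd68 fell by 1.42 and Acp5 by 1.38, so that the order of the largest changes depends on the pseudocount. Changes of members at a few fragments per library rest on few reads.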
